A study of Homo sapiens with 14 samples.

Results

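Expression of the p16 locus at 9p21 and of the RB pathway was followed gene by gene in WI-38, a normal fibroblast strain of finite lifespan derived from fetal lung. The set held CDKN2A, CDKN2B and MTAP, which lie side by side on chromosome 9, and CDK4, CDK6, CCND1, CCND2, RB1, RBL1 and E2F1. The genes were chosen by name, through the array platform's annotation, and each of the 10 had exactly 1 row, among 18377 named genes and 28869 rows in all. None of the rows with several symbols carried one of these names. The 14 arrays were labelled primary cells at passage 19 (2 arrays), hTERT-immortalized cells marked A at passages 39, 50, 58, 67 and 95 (2 arrays each), and hTERT-immortalized cells marked B from passage 96 (2 arrays). All were WI-38 cells in the same medium with serum, split weekly at a fixed seeding number. hTERT is the catalytic subunit of telomerase. The promoter that drives it, the meaning of the letters and whether a culture is 1 clone were not given in the sources used here. Groups are named by letter and passage (A39 to A95, B96) or as primary, with r1 and r2 for the replicate number.

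In the RB pathway, D-type cyclins with their kinases CDK4 and CDK6 phosphorylate RB1 and its relatives, the pocket proteins, which otherwise hold E2F transcription factors in check. The INK4 proteins p16 (from CDKN2A) and p15 (from CDKN2B) bind CDK4 and CDK6 and block this step. In cultured fibroblasts p16 is known to accumulate with repeated division, and its loss, by deletion or by promoter methylation, is known from many tumours and immortal lines. MTAP, an enzyme of methionine salvage, is often deleted together with CDKN2A in tumours. CDKN2A also encodes ARF, a regulator of p53, from an alternative first exon. The annotation of the CDKN2A row lists transcripts of both products, so its value does not separate p16 from ARF.

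The start-site windows of the 9p21 genes are shown because the genes lie close together and were set against each other, and because the series' title concerns differentially methylated regions. Each window, from RefSeq on GRCh38.p14, runs from 250 bases before a transcript start to 50 after it, written 5′ to 3′ along the gene, with capitals at CG dinucleotides, the sites of DNA methylation. CDKN2A has 2 windows, 1 at the start of the p16 transcript and 1 at the gene's outer end, on the side of the ARF exon. Methylation itself was not measured on these arrays.
CDKN2A, p16 start (chr9:21974808-21975107, minus strand): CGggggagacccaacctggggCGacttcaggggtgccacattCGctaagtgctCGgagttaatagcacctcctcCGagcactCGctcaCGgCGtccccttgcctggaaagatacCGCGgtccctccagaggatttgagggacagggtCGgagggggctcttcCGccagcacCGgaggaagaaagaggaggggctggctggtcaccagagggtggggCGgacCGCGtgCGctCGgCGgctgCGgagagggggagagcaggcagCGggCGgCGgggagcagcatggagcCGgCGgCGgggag
CDKN2A, outer start (chr9:21995275-21995574, minus strand): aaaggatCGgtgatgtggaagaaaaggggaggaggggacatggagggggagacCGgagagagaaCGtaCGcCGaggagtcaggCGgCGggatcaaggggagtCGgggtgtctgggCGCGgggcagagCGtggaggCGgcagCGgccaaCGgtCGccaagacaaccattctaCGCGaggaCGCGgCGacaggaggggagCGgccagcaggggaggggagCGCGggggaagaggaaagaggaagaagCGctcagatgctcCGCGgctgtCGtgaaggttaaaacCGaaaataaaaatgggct
CDKN2B (chr9:22009256-22009555, minus strand): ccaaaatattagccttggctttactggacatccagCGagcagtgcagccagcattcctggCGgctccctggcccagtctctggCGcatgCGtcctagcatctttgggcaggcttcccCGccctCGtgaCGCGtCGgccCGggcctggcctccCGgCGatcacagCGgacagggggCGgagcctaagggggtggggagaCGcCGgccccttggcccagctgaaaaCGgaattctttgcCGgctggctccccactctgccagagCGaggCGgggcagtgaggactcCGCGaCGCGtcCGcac
MTAP (chr9:21802386-21802685, plus strand): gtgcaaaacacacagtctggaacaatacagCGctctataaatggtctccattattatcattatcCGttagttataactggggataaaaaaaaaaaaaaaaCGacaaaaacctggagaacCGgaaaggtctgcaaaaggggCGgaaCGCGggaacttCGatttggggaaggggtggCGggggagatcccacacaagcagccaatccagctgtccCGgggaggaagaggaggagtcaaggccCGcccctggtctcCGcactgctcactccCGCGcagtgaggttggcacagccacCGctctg

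The p16 start window held 26 CG dinucleotides, the outer CDKN2A window 28, the CDKN2B window 25 and the MTAP window 15. The median over all 35116 windows of 300 bases was 14. The CDKN2A and CDKN2B windows thus carried more CG than most starts, with 69.9%, 73.8% and 68.0% of windows holding fewer, while MTAP was near the middle at 51.1%.

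Several arrays went against their labels, which bears on every comparison. TERT read 7.07 in primary r1 and 11.70 in primary r2, and 10.67 to 12.18 in the 12 hTERT arrays, so primary r2 lay inside the hTERT range. With the 10 genes left out of the calculation, 0 of the 14 arrays had the array of the same label as the closest by Pearson correlation across rows. The 5 mutual closest pairs were primary r2 with A39 r1, A39 r2 with A50 r1, A50 r2 with A58 r1, A58 r2 with A67 r1, and A95 r2 with B96 r1. Their correlations were 0.986 to 0.993, against 0.945 to 0.983 for pairs sharing a label. Each of the 5 pairs joins r2 of a label with r1 of the next, and whether arrays and labels are shifted against each other cannot be settled from these files. The labels' groups were kept throughout, so every group mean, contrast and within-label spread holds only as far as the labels do. Fibroblast markers were present, with gene medians from 10.39 (S100A4) to 13.22 (COL1A1) on the log2 scale for 10 of 10 genes, though S100A4 went down to 6.26 in an array. The defining markers EPCAM (5.69) and CDH1 (5.99) of epithelium, PTPRC (5.53) and LYZ (4.89) of blood, and CDH5 (6.18) and VWF (6.69) of endothelium had low medians, but KRT18 (10.40), KRT8 (10.03) and TEK (9.80) did not, and KRT19 and PECAM1 reached 9.11 and 8.44 in single arrays. No marker was listed at 0. Mean deviations per array ran from -0.74 (B96 r1) to 0.29 (primary r2) for the fibroblast list, -0.24 to 0.44 for the 8 epithelial genes, -0.32 to 0.16 for the 5 endothelial genes and -0.27 to 0.21 for 4 blood genes. Their part in the results was not tested.

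CDKN2A varied more over the arrays than any other gene of the set. It read 8.80 and 9.29 in primary r1 and r2, 9.25 and 9.59 for A39, 9.30 and 9.46 for A50, 9.42 and 8.10 for A58, 7.85 and 6.33 for A67, 6.54 and 7.84 for A95, and 7.79 and 8.87 for B96. All arrays of the primary, A39 and A50 groups and A58 r1 were at 8.80 or above, and the next 6 by label, from A58 r2 to B96 r1, were at 8.10 or below. B96 r2 read 8.87, inside the range of the primary arrays, of which r2 had TERT inside the hTERT range. Over the other rows, the array closest to B96 r2 was A39 r1 (Pearson correlation 0.979), though not mutually. The range of CDKN2A was 3.26 log2, or 9.58-fold, and 98.5% of all rows had a smaller one. Its lowest values, 6.33 and 6.54, lay between the low medians of the endothelial markers CDH5 (6.18) and VWF (6.69). How far the row responds at that level is unknown, so the fold is the one read on the arrays. In these bulk samples, fewer cells with a transcript and less RNA per cell cannot be told apart.

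**Figure D1:**
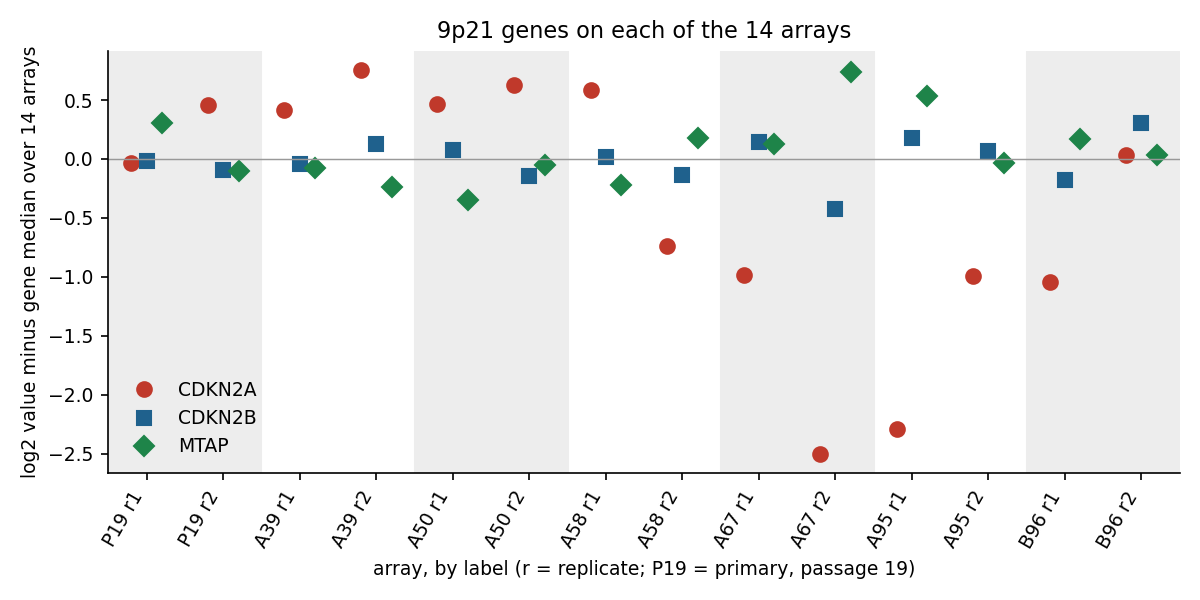
Log2 value of CDKN2A (circles), CDKN2B (squares) and MTAP (diamonds) minus the gene's own median over 14 arrays (vertical axis), by array label (horizontal axis), with 1 point per gene and array, offset sideways so that none is hidden, and shading to separate groups. CDKN2A spans 3.26 log2 and is lowest in A67 r2 and A95 r1, while CDKN2B spans 0.73 and MTAP 1.08.

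By group mean the order for CDKN2A was A39 at 9.42 ± 0.24 (SD, n = 2), A50 at 9.38 ± 0.11, primary at 9.05 ± 0.35, A58 at 8.76 ± 0.93, B96 at 8.33 ± 0.76, A95 at 7.19 ± 0.92 and A67 at 7.09 ± 1.07. Neighbours in this order overlapped in 5 of 6 steps. The exception, A50 above primary, was a gap of 0.34 log2, under the 0.61 standard error of a difference in the fit. The largest step, B96 above A95 by 1.14 log2, had a 95% interval of -0.20 to 2.48. Arrays sharing a label differed by up to 1.52 log2 in CDKN2A (A67), so neighbouring groups did not separate beyond their spread.

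CDKN2B, the gene of p15 next to CDKN2A, stayed within 0.73 log2. Its values were 9.54 and 9.46 in primary, 9.51 and 9.68 for A39, 9.63 and 9.41 for A50, 9.57 and 9.42 for A58, 9.70 and 9.13 for A67, 9.73 and 9.62 for A95, and 9.38 and 9.86 for B96. Every group mean lay between 9.42 and 9.68, and the range was below the median range of all rows (0.85). A67 r2, the array with the lowest CDKN2A, also had the lowest CDKN2B, but A95 r1, with CDKN2A nearly as low, had one of the highest CDKN2B values.

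MTAP, on the other side of CDKN2A, was highest where CDKN2A was lowest. It read 9.48 and 9.07 in primary, 9.10 and 8.94 for A39, 8.83 and 9.12 for A50, 8.95 and 9.35 for A58, 9.30 and 9.91 for A67, 9.71 and 9.14 for A95, and 9.34 and 9.21 for B96. The peak values of 9.91 and 9.71 fell on A67 r2 and A95 r1. Over the 14 arrays MTAP and CDKN2A had a Pearson correlation of -0.88, and CDKN2B and CDKN2A one of 0.27. By this correlation MTAP ranked 18241 among 18376 genes, from most alike to most opposite. RBL1, which lies outside 9p21, was more opposite, at rank 18316. These are descriptions over arrays that form close pairs.

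Setting the neighbours against each other within each array removes the scale of the array. A difference of 2 rows also holds their probes' own offsets, so only its change is read. CDKN2A minus CDKN2B was between -0.74 and 0.05 log2 in the 7 arrays from primary r1 to A58 r1, between -3.19 and -1.32 in the next 6, and -0.99 in B96 r2. CDKN2A minus MTAP ran from 0.65 in A39 r2 to -3.58 in A67 r2, and CDKN2B minus MTAP from 0.80 in A50 r1 to -0.78 in A67 r2. Over the 10 arrays labelled A, CDKN2A minus CDKN2B had a fitted linear slope of -0.48 log2 per 10 passages (permutation test of 100000 resamples, two-sided p = 0.0053, adjusted over the 3 pairs 0.016). CDKN2A minus MTAP had a slope of -0.55 (permutation p = 0.022, adjusted 0.033). CDKN2B minus MTAP had a slope of -0.075 (permutation p = 0.36, adjusted 0.36). With all 10 arrays, both differences that involve CDKN2A passed the threshold and the difference of its neighbours did not, and which arrays the calls rest on follows.

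The course of CDKN2A was known when these pairs were chosen, and the test takes the arrays as independent, although 3 of the 5 closest pairs lie among them. Beyond the mutual pairs, A67 r2 was closest to A95 r1 (Pearson correlation 0.9875), and A95 r1 to A67 r1 (0.9885). A67 r2 and A95 r1 held the lowest CDKN2A values. The permutation p-values hold only as far as the arrays are independent. In exact tests on 9 arrays, the call of CDKN2A minus CDKN2B was lost without A95 r1 (slope -0.41, adjusted p = 0.093). The call of CDKN2A minus MTAP was lost without A39 r1, A39 r2, A50 r1, A50 r2, A67 r1 or A95 r1, with slopes of -0.57, -0.53, -0.53, -0.53, -0.55 and -0.48 and adjusted exact p of 0.055, 0.074, 0.059, 0.059, 0.051 and 0.15. On passages 39 to 67 alone both had an adjusted exact p of 0.052 (n = 8), with steeper slopes of -0.75 and -1.01.

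Genes flanking the cluster were examined next, taking 5 with a named row on each side and, added after its values were seen, CDKN2A-AS1, an antisense RNA gene inside it. None had a range as large as that of CDKN2A. The next largest was that of MIR31HG, the host gene of the microRNA miR-31, at 1.43 log2. MIR31HG was high in primary r1 (8.41), A95 r2 (8.47) and B96 r1 (8.36) and lowest in primary r2 (7.04), an order unlike that of CDKN2A. CDKN2A-AS1 ran from 6.59 to 7.21 and DMRTA1, the first gene beyond CDKN2B, from 7.88 to 8.60. CAAP1, a regulator of apoptosis and the farthest on that side, ran from 8.61 in A95 r2 to 9.30 in A39 r2. The interferon genes IFNA2, IFNA8 and IFNE read 4.98 to 6.69 throughout, and MIR31 read 5.75 to 6.74. ELAVL2, TUSC1 and LINC03106 each had their highest value in A95 r2, at 6.22, 8.19 and 6.14. The medians of IFNA2, IFNA8, IFNE, MIR31, ELAVL2, LINC03106 and CDKN2A-AS1 ran from 5.47 (LINC03106) to 6.83 (CDKN2A-AS1), below every array median (7.26 to 7.48). No detection calls are given, so it is unknown how far these rows respond. Their narrow ranges do not show that their RNA was unchanged. Slopes over the A arrays were between -0.070 and 0.11 per 10 passages for all 11, with limma adjusted p of 0.22 or more.

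**Figure D2:**
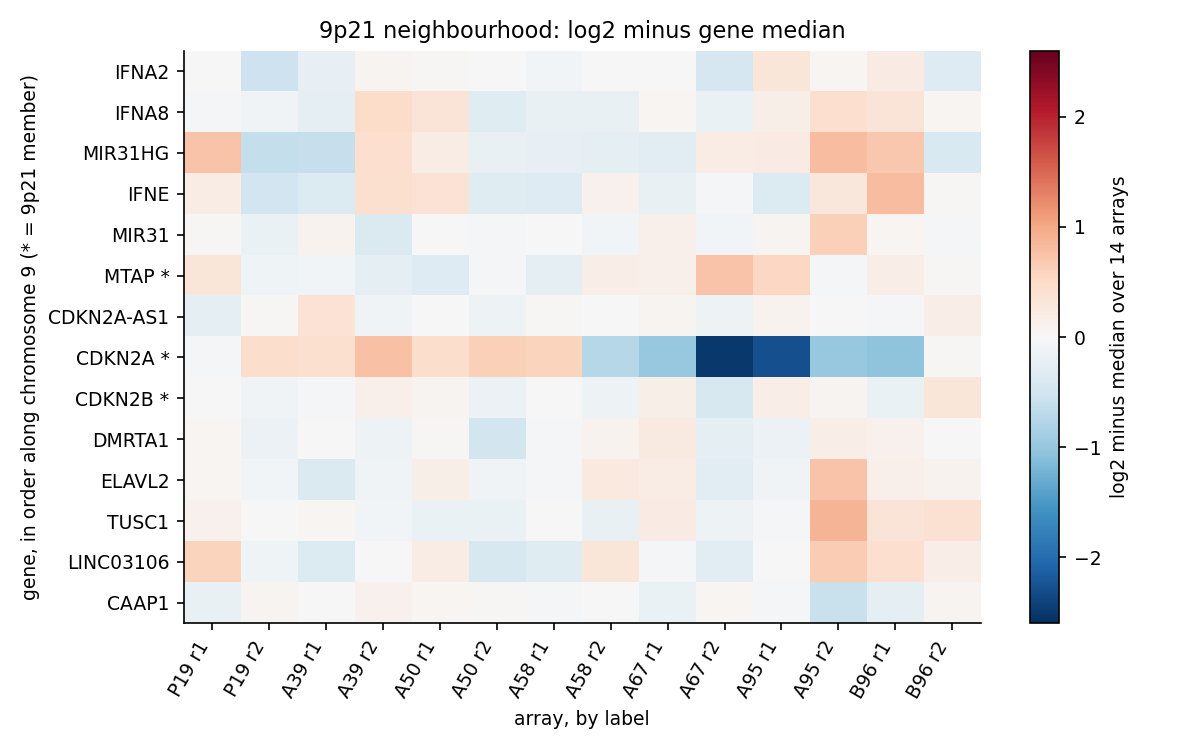
Log2 value minus the gene's median over 14 arrays (colour scale, blue lower and red higher) for 14 genes in their order along chromosome 9 (rows; asterisks mark CDKN2A, CDKN2B and MTAP) and for each array (columns). The CDKN2A row holds the deepest colours, from 9.59 in A39 r2 down to 6.33 in A67 r2, and no flanking gene has a range above 1.43 log2.

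The kinases that p16 inhibits did not move together. CDK4 read 11.14 and 11.15 in primary, 11.12 and 10.88 for A39, 10.71 and 10.80 for A50, 10.67 and 11.39 for A58, 11.30 and 11.57 for A67, 11.49 and 10.82 for A95, and 10.79 and 11.12 for B96. It was highest in the 4 arrays from A58 r2 to A95 r1 and low in A50, A58 r1, A95 r2 and B96 r1. CDK6 read 10.99 and 10.84 in primary, 10.78 and 10.70 for A39, 10.72 and 10.77 for A50, 10.63 and 9.99 for A58, 9.87 and 10.39 for A67, 10.25 and 10.18 for A95, and 10.28 and 10.73 for B96. Its arrays up to A58 r1 were at 10.63 or above, those from A58 r2 to B96 r1 at 10.39 or below, and B96 r2 read 10.73. This is the same division of arrays as for CDKN2A, with a range of 1.12 log2.

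Of the D-type cyclins, which activate these kinases, CCND1 was nearly level. Its 14 values ran from 11.67 to 12.37, and the 2 lowest were A95 r1 (11.67) and A67 r2 (11.74), apart from the others at 12.11 or above. CCND2 read 6.81 and 6.68 in primary, 6.60 and 6.94 for A39, 6.82 and 6.44 for A50, 6.53 and 6.09 for A58, 6.42 and 5.83 for A67, 6.31 and 7.20 for A95, and 6.91 and 7.54 for B96. Its highest values were in B96 r2 and A95 r2 and its lowest in A67 r2, so the A95 arrays stood 0.89 apart. No detection calls are given, so it is unknown how far CCND2 at this level responds.

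Among the pocket proteins, RBL1, which encodes p107 and is itself an E2F target, varied most. It read 9.61 and 9.39 in primary, 9.28 and 8.26 for A39, 8.40 and 8.64 for A50, 8.38 and 9.80 for A58, 9.74 and 10.61 for A67, 10.59 and 9.46 for A95, and 9.73 and 9.22 for B96. The 4 low arrays, at 8.64 or below, were A39 r2, both A50 arrays and A58 r1, and the highest were A67 r2 and A95 r1. MKI67, a marker of cycling cells, was lowest in the same 4 arrays (8.79 to 9.53, against 10.13 or above elsewhere), and its part in the RBL1 values was not tested. RBL1 had a range of 2.35 log2, larger than in 96.0% of rows, and differed by 1.42 between the A58 arrays. RB1, the retinoblastoma gene, spanned 0.87 log2, from 9.64 in A39 r2 to 10.51 in A67 r2, with A95 r1 next at 10.42.

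E2F1, the best known activator E2F, spanned 0.80 log2. It read 8.64 and 8.50 in primary, 8.45 and 8.27 for A39, 8.53 and 8.21 for A50, 8.60 and 8.58 for A58, 8.68 and 8.88 for A67, 9.01 and 8.92 for A95, and 8.81 and 8.37 for B96. Its arrays of one label lay within 0.44 log2, and the A95 arrays (9.01 and 8.92) were above the other 12, of which A67 r2 at 8.88 came nearest.

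**Figure D3:**
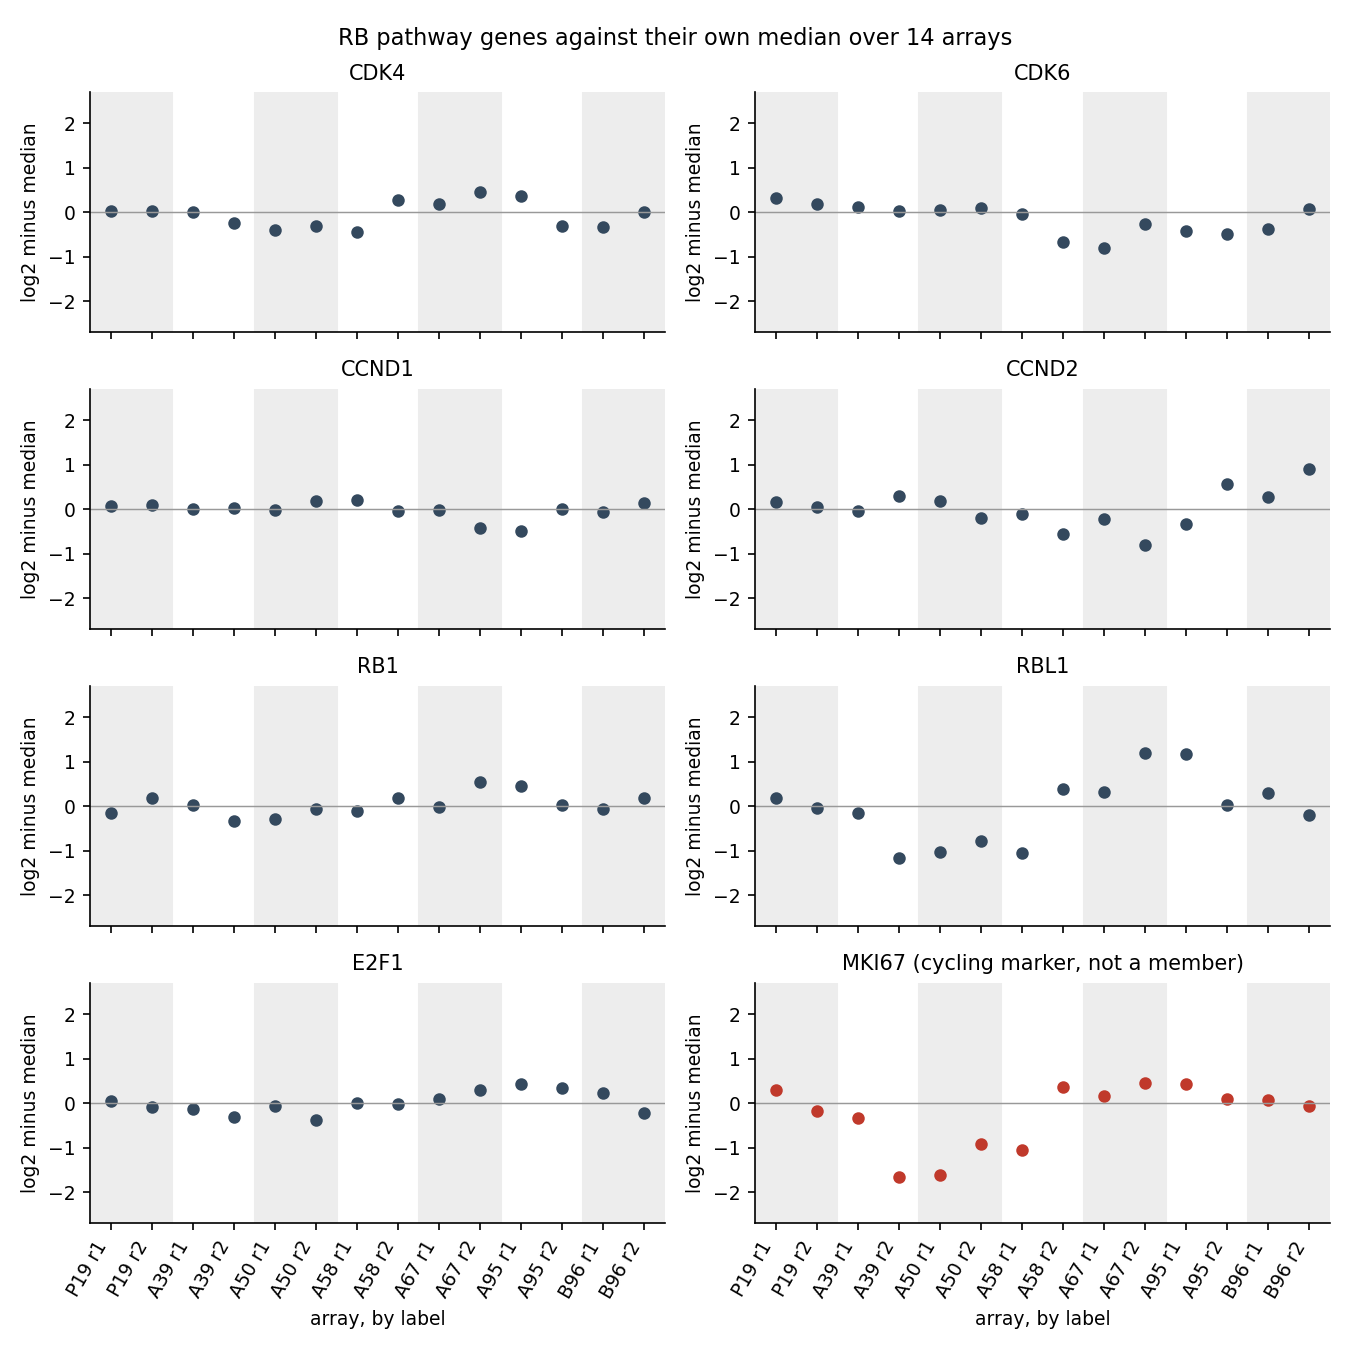
Log2 value minus the gene's own median over 14 arrays (vertical axis, the same in each panel) by array label (horizontal axis) for CDK4, CDK6, CCND1, CCND2, RB1, RBL1 and E2F1, and for MKI67 as a marker of cycling cells. RBL1 spans 2.35 log2 and is low in A39 r2, A50 and A58 r1, as is MKI67, while CCND1, E2F1 and RB1 span 0.70 to 0.87.

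Start-site windows of RBL1 and E2F1 are shown because both genes are known E2F targets and both read high in A67 r2 and A95 r1. Each was searched on both strands for the words TTTCCCGC, TTTGGCGC, TTTCGCGC and TTTGCCGC, which spell the E2F consensus, and matches are in capitals.
RBL1 (chr20:37095948-37096247, minus strand): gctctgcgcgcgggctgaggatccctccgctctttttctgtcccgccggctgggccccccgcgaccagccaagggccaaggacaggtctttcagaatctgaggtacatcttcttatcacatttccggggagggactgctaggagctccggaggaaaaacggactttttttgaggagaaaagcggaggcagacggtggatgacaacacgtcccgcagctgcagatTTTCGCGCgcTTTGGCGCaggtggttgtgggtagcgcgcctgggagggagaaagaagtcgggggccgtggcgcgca
E2F1 (chr20:33686336-33686635, minus strand): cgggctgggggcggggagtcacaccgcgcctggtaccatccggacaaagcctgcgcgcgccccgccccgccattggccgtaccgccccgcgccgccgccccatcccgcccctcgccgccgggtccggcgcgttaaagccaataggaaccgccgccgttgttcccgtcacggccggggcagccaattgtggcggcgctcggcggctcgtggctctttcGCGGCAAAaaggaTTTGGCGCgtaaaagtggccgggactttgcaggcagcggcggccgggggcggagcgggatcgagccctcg

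Both windows held 2 matches. In RBL1 they were TTTCGCGC and TTTGGCGC, and in E2F1 they were TTTGGCGC and TTTGCCGC on the opposite strand, printed as GCGGCAAA. Of the 10 windows of the set, which belong to 8 genes, 2 had a match, against 3.31% of all 35116 windows. The windows of CDKN2A, CDKN2B, MTAP, CDK4, CDK6 and RB1 did not hold these letters, and windows of CCND1 and CCND2 were not used here. The single RB1 window, chr13:48476200-48476499, held 0 CG dinucleotides. Whether it lies at the main start of RB1 was not checked, so it does not describe the main RB1 promoter. A match is a description of letters and shows no binding.

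A39, the earliest hTERT passage, was compared first with the arrays labelled primary, of which r2 had TERT inside the hTERT range. RBL1 was 0.73 ± 0.53 (SE) log2 lower in A39, E2F1 0.21 ± 0.19 lower and CDKN2A 0.38 ± 0.61 higher in mean, and limma's adjusted p was 1.00 for each of the 10. In 5 of 10 genes (CDK4, CDK6, CCND1, RBL1 and E2F1) both A39 arrays lay below both primary arrays, against 12.8% of all rows, and 0 lay above, against 15.0%. The nearest primary and A39 arrays read 11.14 and 11.12 for CDK4, 10.84 and 10.78 for CDK6, and 12.25 and 12.20 for CCND1. For RBL1 they read 9.39 and 9.28, and for E2F1 8.50 and 8.45. Each gap was under that gene's standard error in the fit. Limma called 0.0% of rows here, 0 of 28869, with 347 (1.2%) at an unadjusted p under 0.05 and 0 of the 10 among them. Primary r2 and A39 r1, a closest pair, stand on opposite sides. Without primary r2 the difference was -0.84 for RBL1, -0.28 for E2F1 and 0.62 for CDKN2A, and without primary r1 it was -0.62, -0.14 and 0.13. Without A39 r1 it was -1.24, -0.30 and 0.55, and without A39 r2 it was -0.22, -0.12 and 0.20.

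Between the ends of the A course, A95 against A39, CDKN2A was lower by a log2 difference of -2.23 ± 0.61 (SE, 95% interval -3.57 to -0.89), which is 4.69-fold on the linear scale. The adjusted p by limma was 0.528. RBL1 had a difference of 1.26 ± 0.53 (adjusted p = 0.535) and E2F1 of 0.60 ± 0.19 (adjusted p = 0.528). CDK6 had -0.53 ± 0.25, MTAP 0.41 ± 0.27 and RB1 0.38 ± 0.25. For CDKN2B the difference was 0.080 with an interval of -0.42 to 0.58, which does not hold a change of the size measured for CDKN2A. The arrays did not overlap for 5 of 10 genes, against 38.1% of all rows. MTAP, RBL1 and E2F1 were the 3 higher ones, against 22.7% of rows, and CDKN2A and CDK6 the 2 lower ones, against 15.4%. The nearest A95 and A39 arrays read 9.14 and 9.10 for MTAP and 9.46 and 9.28 for RBL1, gaps under the standard error. For E2F1, CDKN2A and CDK6 the gap was above it. Limma called 0.0% of rows (0 of 28869), with 9.21% at an unadjusted p under 0.05 and 3 of the 10 genes (CDKN2A, RBL1 and E2F1) among them. Leaving out A95 r1 or A95 r2 moved CDKN2A to -1.58 or -2.88 and RBL1 to 0.69 or 1.82. Without A95 r1, MTAP was at 0.12 and RB1 at 0.17, and without A95 r2 they were at 0.69 and 0.60. Without A39 r2, RBL1 was at 0.74 and RB1 at 0.20.

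The contrast of B96 with A95 sets the letters side by side at close passages. CDKN2A had a log2 difference of 1.14 ± 0.61 (SE), CCND2 of 0.47 ± 0.34 and E2F1 of -0.38 ± 0.19, with a limma adjusted p of 1.00 for each. Both B96 arrays lay above both A95 arrays for 1 gene, CDK6 (9.83% of rows), and below them for 1, E2F1 (9.84% of rows), and the other 8 genes overlapped. That is 2 of 10 genes without overlap, against 19.7% of rows. The nearest B96 and A95 arrays read 10.28 and 10.25 for CDK6 and 8.81 and 8.92 for E2F1, gaps under the standard error. A95 r2 and B96 r1 form a closest pair, and CDKN2A read 7.84 and 7.79 there. The CDKN2A difference was 0.49 without A95 r1, 1.79 without A95 r2, 1.68 without B96 r1 and 0.60 without B96 r2. With 1 array left out CCND2 ran from 0.025 (without A95 r1) to 0.92 (without A95 r2), and E2F1 from -0.59 (without B96 r1) to -0.16 (without B96 r2). Limma called 0.0% of rows (0 of 28869), with 659 (2.28%) at an unadjusted p under 0.05 and 0 of the 10 among them.

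The 10 A arrays were then fitted with a slope on labelled passage. CDKN2A had a slope of -0.46 ± 0.12 (SE) log2 per 10 passages, with a limma adjusted p of 0.107. E2F1 had the smallest adjusted p, 0.076, with a slope of 0.12 ± 0.026. RBL1 had a slope of 0.28 ± 0.10 (adjusted p = 0.195) and CDK6 of -0.11 ± 0.044 (adjusted p = 0.234). MTAP, RB1, CCND1 and CDK4 had slopes of 0.092, 0.081, -0.062 and 0.056. CDKN2B had 0.017 with an interval of -0.055 to 0.088, and CCND2 -0.0025 with an interval of -0.14 to 0.14. On passages 39 to 67 alone the slopes were -0.81 for CDKN2A, 0.50 for RBL1, -0.24 for CDK6, -0.24 for CCND2, 0.20 for MTAP, 0.16 for CDK4 and 0.15 for RB1. None of the 10 genes was called, against 0.281% of all rows (81 of 28869, of which 0.239% falling and 0.0416% rising). At an unadjusted p under 0.05 there were 4 of 10 genes, against 18.7% of rows. With passages replaced by their ranks, CDKN2A (limma adjusted p = 0.042) and E2F1 (adjusted p = 0.040) were called, among 489 of 28869 rows. E2F1 was also called with passage as a random block (limma adjusted p = 0.034), among 729 rows. On passages 39 to 67 the limma adjusted p was 0.146 for CDKN2A and 0.216 for E2F1, and 0 rows were called.

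**Figure D4:**
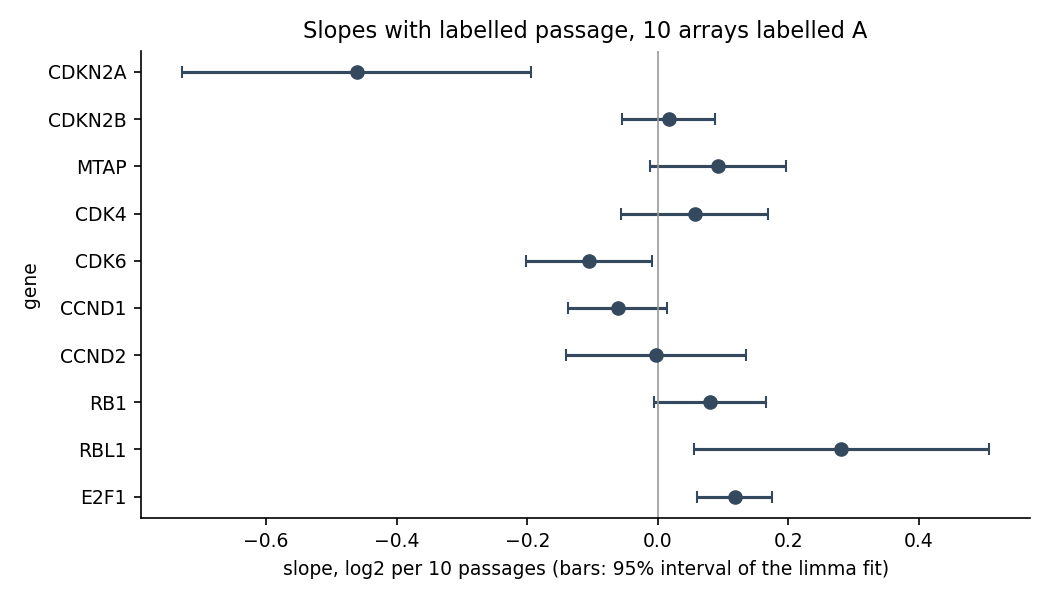
Slope of the log2 value per 10 labelled passages (horizontal axis) for each of the 10 genes (vertical axis) over the 10 arrays labelled A, with 95% intervals of the limma fit that are not adjusted for the number of rows. CDKN2A lies at -0.46, RBL1 at 0.28 and E2F1 at 0.12, and the interval of CDKN2B spans 0.

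A limma F test over the 7 groups called 0.0% of rows (0 of 28869), with 4.62% at an unadjusted p under 0.05. CDKN2A was among the latter, with a limma adjusted p of 0.943, and the other 9 genes were not.

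The spread behind these tests was measured from both kinds of pairs. In the 7 pairs with a shared label CDKN2A differed by 0.16 to 1.52 log2 with a median of 1.08, and in the 5 closest pairs, found without these genes, by 0.04 to 0.29 with a median of 0.05. RBL1 had medians of 0.87 and 0.14, CCND2 of 0.44 and 0.12, MTAP of 0.40 and 0.11 and RB1 of 0.33 and 0.080. CDKN2B differed little in either, with medians of 0.17 and 0.16. The median was smaller in the closest pairs for 10 of 10 genes, against 78.2% of all rows. These pairs were chosen as the most alike over the other rows, so smaller differences are built into the choice. The count is a description only. The standard deviation within labels was 0.72 for CDKN2A and 0.62 for RBL1, against a median of 0.24 for all rows.

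**Figure D5:**
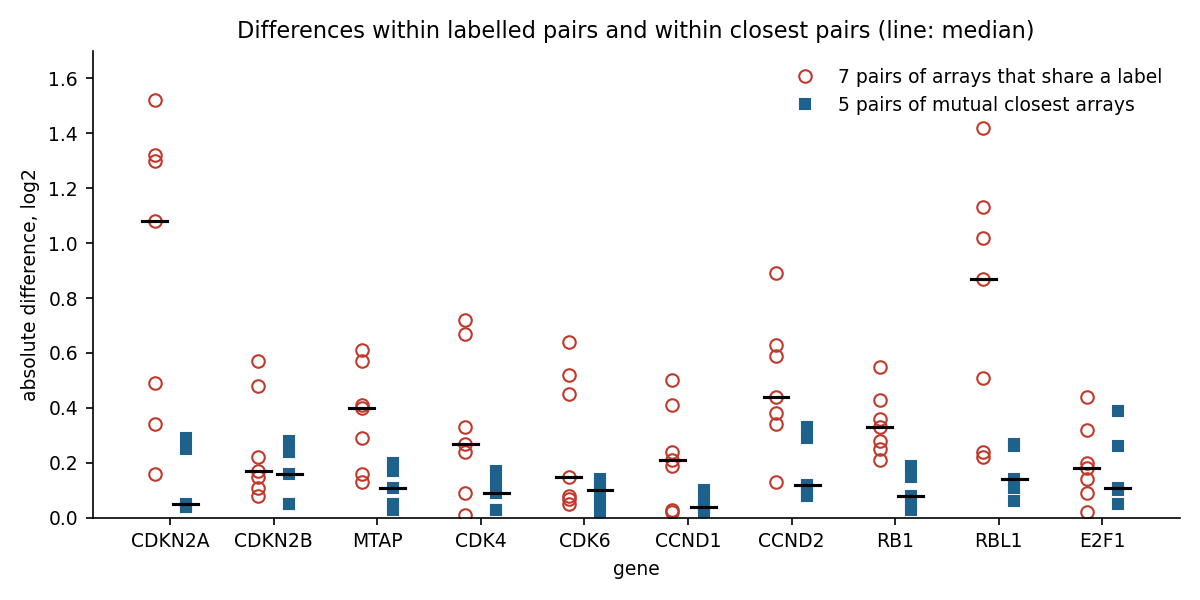
Absolute difference in log2 value (vertical axis) for each gene (horizontal axis) within the 7 pairs of arrays that share a label (open circles) and within the 5 pairs of mutual closest arrays (filled squares), with lines at the medians. For CDKN2A the medians are 1.08 and 0.05, and for CDKN2B 0.17 and 0.16.

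Other genes of the pathway were taken from named lists and described over the A arrays by their slope per 10 passages. Of 22 measured E2F target genes, all 22 had a positive slope, with a median of 0.20 against 0.0098 over all 18377 genes, of which 10402 were positive. None was called, 13 had an unadjusted p under 0.05, against 3661 of all 18377 genes, and the smallest limma adjusted p was 0.095. CDC6, which licenses replication origins, had a slope of 0.32 ± 0.096 (SE) and ran from 8.82 in A58 r1 to 11.16 in A95 r1. ORC1, a subunit of the origin recognition complex, had 0.31 ± 0.11 and CDC45, a part of the replicative helicase, 0.31 ± 0.11. Both had their highest value in A67 r2, and their lowest in A58 r1 (ORC1, 7.12) and A50 r1 (CDC45, 7.77). The list includes MKI67, and the slopes leave out the primary arrays. Primary r1 read 8.96 for ORC1 and 9.29 for CDC45, above A95 r2 (8.66 and 9.28), while CDC6 was lower in primary r1 (10.22 against 10.57). The part of cycling in these slopes was not tested.

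Of 6 other G1 cyclins and kinases, 5 had positive slopes and 1 a negative one, with a median of 0.17, 0 called and 5 at an unadjusted p under 0.05, against 3661 of 18377 for all genes. CCNE2, a partner of CDK2 at the G1/S transition, had a slope of 0.34 ± 0.12 (SE) and ran from 7.44 in A39 r2 to 10.32 in A67 r2. CCNA2, the S-phase cyclin, had 0.21 ± 0.084, and CDC25A, a phosphatase that activates CDK2, 0.19 ± 0.079. CCND3, the third D-type cyclin, had -0.11 ± 0.045, from 10.36 in primary r2 to 9.34 in A67 r1.

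Of 10 other pocket proteins, E2Fs and partners, 5 had positive and 5 negative slopes, with 0 called and 4 at an unadjusted p under 0.05 (all genes, 3661 of 18377). The atypical repressors E2F7 and E2F8 had slopes of 0.28 ± 0.075 (SE) and 0.26 ± 0.070, and TFDP1, the DNA-binding partner of E2Fs, 0.10 ± 0.026. E2F7 was at 10.79 or above in each array from A58 r2 to B96 r1 and at 9.99 or below in primary r2, A39, A50 and A58 r1. E2F3, E2F5 and the pocket protein gene RBL2 had slopes of -0.024, -0.023 and -0.018.

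Of 4 other CDK inhibitors measured, CDKN1A, the gene of p21, had a slope of -0.20 ± 0.054 (SE, limma adjusted p = 0.116) and CDKN1C -0.035 ± 0.029. CDKN2D, the gene of the INK4 protein p19, had 0.035 ± 0.031. CDKN1B, the gene of p27, had a slope of 0.0083 but ranged from 8.09 in A95 r2 to 10.10 in A67 r2. Of 20 measured regulators of the INK4 locus, 10 had positive and 10 negative slopes, with a median of 0.00032, 0 called and 5 at an unadjusted p under 0.05, a share near that of all genes (3661 of 18377). ETS2, an activator of p16 transcription, had -0.13 ± 0.040, JUNB -0.12 ± 0.053 and the Polycomb cofactor JARID2 -0.11 ± 0.040. EED, a core Polycomb subunit, had 0.14 ± 0.042, the insulator protein CTCF 0.10 ± 0.045 and TWIST1 0.071 ± 0.060.

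Finally, the genes whose pattern over the 14 arrays was most like that of CDKN2A were listed by Pearson correlation among 18376 other genes. They were SUSD1 (0.98), LMBR1L (0.97), PHF21A (0.96), LRP1 (0.96) and KDM5B (0.95), and their lowest values fell on A67 r2 or A95 r1. The most opposite were BARD1 (-0.97), URB2 (-0.96), RAB3IP (-0.96), SLCO1B3 (-0.95) and SUV39H2 (-0.95), each highest in A67 r2. Within the set CCND1 (0.88) and CDK6 (0.66) ran with CDKN2A, and RBL1 (-0.90), E2F1 (-0.85), RB1 (-0.75) and CDK4 (-0.68) ran against it. The arrays are not independent, and these values are descriptions only.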

How the data were processed

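RNA of 14 WI-38 cultures was measured on Affymetrix Gene 1.0 ST arrays, in biological duplicate per the labels' protocols. The authors deposited 1 table of 28869 log2 values per array, from 0 to 14.27, with the log base read from that range. Array medians were 7.26 to 7.48. How background, summarisation and normalization were handled was not given in the sources used here, so background correction could not be varied. There are no detection calls, and the number of arrays limits the precision. One symbol was found for 19310 rows (19279 updated through RefSeq by gene ID). For lists, the row with the highest mean stood for its gene.

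Group means were fitted to all 14 arrays without a filter (limma 3.58.1, R 4.3.3), contrasts tested with eBayes (two-sided), and slopes fitted to the 10 A arrays. Benjamini-Hochberg adjustment covered all 28869 rows, with calls at an adjusted p under 0.05. Within-array differences were tested by permuting passages (numpy 2.4.6). Fits were tested on simulated data with independent arrays, so likeness between arrays and shifted labels were not part of that test. Named genes were the 10, 5 measured genes each side of the cluster, the 5 most like and unlike CDKN2A, and the 3 largest slopes each way per list. All were chosen with earlier results of these data known. Alternatives were leaving out each array, a replicate block, quantile normalization, median centring, a 30th-percentile filter, a robust prior, compared groups alone, and for passage a random block, ranks and passages 39 to 67.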

Additional observations from a re-analysis of the deposited data

How the results depend on the processing

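The direction and side of the threshold of each of the 10 genes held in 454 of 480 gene and setting combinations. None of the 10 was called in the main fits, so keeping the side of the threshold meant staying uncalled. CDKN2A kept its sign in every contrast and in the trend under all settings run. The number of rows with a trend was 81, and it was 159 with quantile normalization, 429 with median centring, 271 with dim rows filtered, 132 with a robust prior, 489 on ranks of passage, 729 with a random passage block, 0 on passages 39 to 67, and 0 to 571 with 1 array left out (571 without A95 r1). Their cause was not tested, beyond fewer rows or arrays where the setting removes them. With 1 array left out, 0 to 6 rows were called for A39 versus primary (6 without primary r2), 0 to 4 for A95 versus A39 (4 without A95 r1) and 0 to 3 for B96 versus A95 (3 without B96 r2). A fit on the compared groups alone called 2 rows for A95 versus A39.

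The replicate numbers did not pair the arrays: deviations of same-numbered arrays correlated between -0.53 and 0.20 over 21 pairs of groups, with 4 of 21 above 0.1. With the replicate block the trend called 74 rows, and CDKN2A minus MTAP kept its slope of -0.55 with an adjusted exact p of 0.055. On passages 39 to 67 the slopes of CDKN2A minus CDKN2B and CDKN2A minus MTAP were -0.75 and -1.01, and with 1 array left out they ran from -0.63 to -0.41 and from -0.77 to -0.48. For CDKN2B minus MTAP that range was -0.14 to -0.053.

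Small differences changed sign. CCND2 in A39 versus primary turned to -0.018 with quantile normalization and -0.030 with median centring, and CDKN2B had a slope of -0.062 on passages 39 to 67. With 1 array left out, A39 versus primary ran from -0.14 to 0.20 for CCND2 and -0.34 to 0.015 for RB1. A95 versus A39 ran from -0.0050 to 0.16 for CDKN2B, -0.18 to 0.49 for CDK4 and -0.46 to 0.43 for CCND2. B96 versus A95 ran from -0.29 to 0.18 for CDKN2B, -0.43 to 0.14 for MTAP, -0.54 to 0.14 for CDK4, -0.39 to 0.045 for RB1 and -1.11 to 0.015 for RBL1. The trend ran from -0.0044 to 0.031 for CDKN2B and -0.11 to 0.032 for CCND2.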
